A study of Mus musculus with 8 samples.

Results

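The 9 genes described here encode components and regulators of complement, the blood protein system that tags particles for removal. They are C1s1, C1ra, C2, C3, C4b, Cfb, Cfi, Serping1 and Masp1, and they were picked by symbol from the 34945 named genes of the deposited table. The choice was made with their values in the siCasp8 and Scr libraries known, so the differences between those groups selected the members and are described here without a test. All 9 passed the filter on low values, a mean of at least 10 over the 8 libraries, which 14154 genes passed. Poly-A RNA came from AML12, an established mouse hepatocyte line. The line comes from an animal transgenic for human TGF-alpha, a background that every culture of both groups shares. The Scr group was 4 wild-type AML12 cultures given a scrambled control siRNA, and the siCasp8 group was 4 AML12 cultures given Casp8 siRNAs. In both groups the siRNA was used at 40 nM with Lipofectamine RNAiMAX in 24-well plates and RNA was collected after 48 hours. The submitters describe the cultures as biological replicates. All come from 1 cell line, so p-values measure only the spread between these cultures.

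Complement is started by 3 routes. In the classical route the proteases C1r and C1s, bound to C1q, cut C4 and then C2, and in the lectin route proteases of the MASP family take their place. Both routes, and the alternative route that runs on factor B, build enzymes that cut C3, whose larger fragment binds covalently to nearby surfaces. Soluble inhibitors such as C1 inhibitor and factor I hold these steps in check, and hepatocytes are a main source of most of these plasma proteins.

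Values below are the authors' normalized values per gene. Casp8, the silenced gene and the initiator protease of death receptor signalling, had a mean of 3972 ± 129 over the Scr libraries and, at 37.3% of that, 1480 ± 108 over the siCasp8 libraries (SD, n = 4 per group, as in all group means below). Estimated depth was 30.7 to 51.8 M reads in the Scr libraries and 50.3 to 56.8 M reads in the siCasp8 libraries. Depth thus went largely with group, so a fit with depth as a covariate cannot tell the effects of depth and group apart. Of 14154 tested genes, limma with Benjamini-Hochberg adjustment called 2739 (19.4%) higher and 2950 (20.8%) lower in siCasp8, and after rescaling to a common upper quartile these counts were 4471 and 1665. Of the 8 hepatocyte markers, 7 were measured and summed to between 39756 and 43546 in Scr and between 46158 and 49546 in siCasp8, but the genes of the list did not all go one way. Apob, the most abundant, averaged 26046 in Scr and 21951 in siCasp8, Alb, the gene of albumin, 86.4 and 3626, and Hnf4a 6535 and 6944. Among 10 macrophage markers, Adgre1, Clec4f, Cd5l, Marco and Tyrobp were listed at 0 in all 8 libraries, while Csf1r, Ptprc and Cd68 were detected. The macrophage list summed to 782 to 849 in Scr and to 579 to 654 in siCasp8, a gap that lay in Csf1r, at 569 and 347, while Ptprc was at 134 and 152 and Cd68 at 116.6 and 117.1. The cholangiocyte list summed to 102415 to 111592 in Scr and 118267 to 125969 in siCasp8, mostly from Spp1, at 89795 and 104055. Its genes differed widely in level and direction. Sox9 was at 7900 and 8774, while Krt19 was lower in siCasp8, at 7764 and 6975, and so was Krt7, at 2226 and 2003. Cftr averaged only 127 and 138, and Epcam was nearly absent, at 0 and 0.22. Stellate markers summed to 121 to 172 and 100.5 to 178, and endothelial markers, with Lyve1 and Cdh5 at 0 throughout, to 185 to 536 and 178 to 301. The part of any of these markers in the complement values was not tested, and in bulk RNA fewer cells of a type and less RNA per cell cannot be told apart.

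Among the members, 8 were higher in siCasp8 and 1, Masp1, was lower. All 9 had groups that did not overlap, 8 with siCasp8 above Scr and 1 with siCasp8 below. Over all tested genes 18.0% did not overlap with siCasp8 above and 19.5% with siCasp8 below, and since the members were selected on these values nothing is read from the comparison. The median log2 difference of the members, siCasp8 minus Scr on the log2(value + 1) scale, was 0.65, and the median over all tested genes was 0.00. Together the 9 genes made up 0.0995% to 0.105% of a library's total value in Scr and 0.146% to 0.148% in siCasp8.

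**Figure D1:**
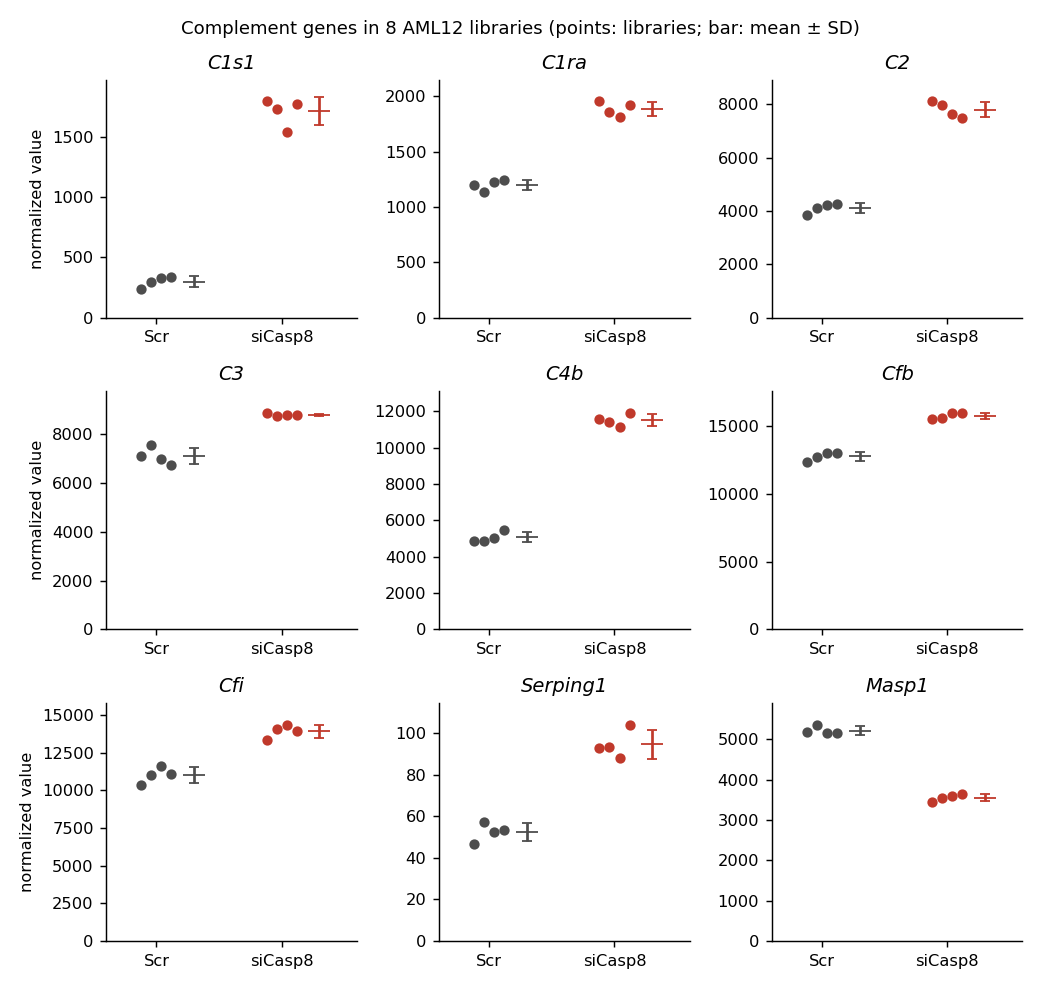
Normalized value (vertical axis, linear, starting at 0) of each of the 9 complement members in the 4 Scr and 4 siCasp8 libraries, 1 panel per gene. Points are libraries and bars are group means ± SD. The siCasp8 points lie above every Scr point in 8 panels, and in the Masp1 panel they lie below.

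C1s1 encodes C1s, the protease of the classical route that cuts C4 and C2, and it lies at chr6:124530345-124542359 on the minus strand (ENSMUSG00000038521.17, GRCm38). Its values in Scr replicates 1 to 4 were 237, 298, 327 and 336. In siCasp8 replicates 1 to 4 they were 1794, 1735, 1544 and 1775. Every siCasp8 library was above every Scr library by a wide margin, and the group means of 299 ± 44.5 and 1712 ± 115 differed 5.72-fold. The log2 difference was 2.52 (SE 0.10), the largest among the 9 members. The estimated reads of C1s1 were 165 to 386 per Scr library and 1805 to 2288 per siCasp8 library.

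C1ra encodes C1r, the protease that activates C1s, and it lies 6901 bases from C1s1 on the opposite strand, at chr6:124512405-124523443 (ENSMUSG00000055172.10). Its Scr values were 1198, 1134, 1226 and 1242, and its siCasp8 values were 1954, 1858, 1816 and 1920. The groups were apart, with a log2 difference of 0.65 (SE 0.0467). The C1r and C1s proteins work as a pair, and the ratio of C1s1 to C1ra per length of transcript was 0.252 ± 0.0347 in Scr and 0.917 ± 0.0387 in siCasp8. The C1s1 transcript was thus well below C1ra in the control cultures and close to it after Casp8 siRNA.

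Mouse carries a near-identical copy of each of these genes, C1s2 and C1rb, in the same stretch of chromosome 6, and reads from shared sequence could be split between copies. The coding sequences of C1s1 and C1s2 were 95.7% identical, with 90 mismatches in 2082 aligned bases, and those of C1ra and C1rb were 98.0% identical, with 42 mismatches in 2118 bases. Of the 31-base words in C1s1 transcripts, 33.5% also occurred in C1s2, and of those in C1ra, 56.9% also occurred in C1rb. The windows of 60 coding bases below hold the most mismatches of each pair and show where reads can tell the copies apart. Capitals mark the mismatched bases, and sequences are from the GENCODE M21 transcripts on GRCm38.
C1s1, chr6:124531486-124531545, minus strand: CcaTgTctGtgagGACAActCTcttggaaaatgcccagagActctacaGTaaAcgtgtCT
C1s2, chr6:124625708-124625767, minus strand: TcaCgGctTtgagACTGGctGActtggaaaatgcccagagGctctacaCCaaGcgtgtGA
C1ra, chr6:124522654-124522713, plus strand: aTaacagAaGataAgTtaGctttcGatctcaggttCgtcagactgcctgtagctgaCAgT
C1rb, chr6:124580700-124580759, plus strand: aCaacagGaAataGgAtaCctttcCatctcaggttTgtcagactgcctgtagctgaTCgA
The first pair of windows differs at 17 positions and the second at 11. Summing copies left the differences nearly as they were: C1s1 with C1s2 went from 327 ± 45.0 to 1827 ± 121, a log2 difference of 2.49, and C1ra with C1rb from 1238 ± 50.9 to 1951 ± 72.5, a log2 difference of 0.66. The values of the 2 copies taken one by one remain uncertain for this reason.

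C4b encodes C4, the first substrate of C1s, at chr17:34728380-34743882 on the minus strand (ENSMUSG00000073418.4). Its values were 4881, 4863, 5056 and 5461 in Scr and 11575, 11446, 11168 and 11921 in siCasp8. The lowest siCasp8 library was above the highest Scr library, and the log2 difference was 1.19 (SE 0.0416), the second largest among the members. C4a, a near copy that shares 48.3% of the 31-base words of C4b, had no value of its own, and reads from it could be counted under C4b.

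C2 encodes the protease that joins C4 to form the C3-cutting enzyme of the classical and lectin routes, and it lies at chr17:34862604-34898265 on the minus strand (ENSMUSG00000024371.14). Its values were 3861, 4098, 4208 and 4277 in Scr and 8110, 7958, 7636 and 7478 in siCasp8. All siCasp8 libraries were above all Scr libraries, with a log2 difference of 0.92 (SE 0.0416). Between the groups C4b differed 2.28-fold and C2 1.90-fold, and the ratio of C2 to C4b per length went from 1.65 ± 0.0602 in Scr to 1.38 ± 0.0687 in siCasp8.

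Cfb encodes factor B, the relative of C2 that serves the alternative route, and it lies 85 bases from C2 on the same strand, at chr17:34856374-34862518 (ENSMUSG00000090231.10). Its values were 12336, 12691, 13045 and 13026 in Scr and 15541, 15617, 15972 and 15930.3 in siCasp8. The groups were apart, but the log2 difference of 0.30 (SE 0.0313) was the smallest among the 9 members. C2 and Cfb are 58.7% identical over aligned coding bases and share no 31-base word. The ratio of C2 to Cfb per length was 0.335 ± 0.00665 in Scr and 0.515 ± 0.0260 in siCasp8, with no overlap between the groups. Gm20547, a predicted gene whose model overlaps both on the same strand and holds 75.5% of the 31-base words of Cfb and 40.2% of those of C2, was listed at 0 in the 4 Scr libraries and at a mean of 27.4 ± 13.5 in siCasp8, far below either member. It was chosen after its values were seen. Zbtb12 overlaps C2 on the other strand and averaged 1378 ± 29.4 over Scr and 1354 ± 53.9 over siCasp8. Whether the counting used strand is not given in the sources used here.

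C3 encodes the central component that all routes cut, at chr17:57203970-57228136 on the minus strand (ENSMUSG00000024164.15). Its values were 7093, 7556, 6992 and 6747 in Scr and 8867, 8751, 8766 and 8771 in siCasp8. The siCasp8 libraries lay within a coefficient of variation of 0.599%, the tightest of the members in that group, and above every Scr library. The log2 difference was 0.31 (SE 0.0372). Cfb and C3, the 2 proteins of the alternative enzyme, kept nearly the same ratio per length, 3.37 ± 0.214 in Scr and 3.35 ± 0.0597 in siCasp8, whereas C4b to C3 went from 0.684 ± 0.0670 to 1.25 ± 0.0336.

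C3 and C4 attach to surfaces through a thioester bond within the protein, and this chemistry rests on a short stretch of codons found in both transcripts. The windows of 57 coding bases below show it, with the 5 codons of the thioester stretch in capitals, from the GENCODE M21 transcripts on GRCm38.
C3, chr17:57215823-57215879, minus strand: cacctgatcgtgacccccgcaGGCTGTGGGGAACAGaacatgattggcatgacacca
C4b, chr17:34734460-34734516, minus strand: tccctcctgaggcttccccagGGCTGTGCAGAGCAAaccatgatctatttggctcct
The stretch is codons 1009 to 1013 of 1663 in C3 and codons 1005 to 1009 of 1738 in C4b. These substrates had log2 differences of 0.31 and 1.19.

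Cfi encodes factor I, the protease that cuts the active fragments of C3 and C4 into inactive forms, at chr3:129835884-129875332 on the plus strand (ENSMUSG00000058952.12). Its values were 10354, 11030.3, 11603 and 11076 in Scr and 13346, 14042, 14365 and 13934 in siCasp8. The groups were apart, with a log2 difference of 0.34 (SE 0.0395). Cfi was also the most abundant member per length of transcript in both groups. The ratio of Cfi to C3 per length was 3.84 ± 0.273 in Scr and 3.91 ± 0.140 in siCasp8, with ranges that overlap.

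Serping1 encodes C1 inhibitor, the serpin that inactivates C1r, C1s and some proteases of the MASP family, at chr2:84765387-84775444 on the minus strand (ENSMUSG00000023224.12). Its values were 46.6, 56.9, 52.6 and 53.5 in Scr and 93.0, 93.4, 87.7 and 104 in siCasp8. All siCasp8 libraries were above all Scr libraries, with a log2 difference of 0.84 (SE 0.138), the widest error of the members. It was by far the least abundant of the 9, with an estimated 32.4 to 61.5 reads per Scr library and 103 to 134 per siCasp8 library. The ratio of Serping1 to C1s1 per length was 0.295 ± 0.0326 in Scr and 0.0921 ± 0.00505 in siCasp8, with no overlap between the groups.

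Masp1 encodes MASP-1 and, by other splicing, MASP-3 and the short protein MAp44, and it lies at chr16:23449417-23520815 on the minus strand (ENSMUSG00000022887.9). Its values were 5185, 5371, 5172 and 5154 in Scr and 3440.2, 3546, 3601 and 3645 in siCasp8. Every siCasp8 library was below every Scr library, the only member with that order, and siCasp8 stood at 68.2% of Scr, a log2 difference of -0.55 (SE 0.0343). The value per gene does not separate the splice forms. Rtp4, which overlaps Masp1 on the other strand, was far lower, at 64.2 ± 5.23 in Scr and 61.5 ± 12.4 in siCasp8. The ratio of Masp1 to C1ra per length was 2.43 ± 0.147 in Scr and 1.05 ± 0.0518 in siCasp8. The Masp1 RNA value, with all splice forms in it, thus stood above that of C1ra in the controls and near it after Casp8 siRNA. The share of the Masp1 value that encodes a protease was not tested.

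Of the 9 members, 6 encode serine proteases: C1ra, C1s1, C2, Cfb, Cfi and Masp1. They share the fold of the active site, and all but Masp1 were higher in siCasp8. The windows of 57 coding bases below show that core, with the 5 codons around the catalytic serine in capitals. They come from the GENCODE M21 transcripts on GRCm38, and the coordinates of C2, Cfb and Masp1-201 span an intron.
C1ra, chr6:124522795-124522851, plus strand: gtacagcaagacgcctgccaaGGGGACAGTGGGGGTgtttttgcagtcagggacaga
C1s1, chr6:124531091-124531147, minus strand: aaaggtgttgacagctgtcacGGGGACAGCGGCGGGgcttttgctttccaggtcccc
C2, chr17:34863194-34863366, minus strand: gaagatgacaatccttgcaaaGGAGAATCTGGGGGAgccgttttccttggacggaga
Cfb, chr17:34856895-34857025, minus strand: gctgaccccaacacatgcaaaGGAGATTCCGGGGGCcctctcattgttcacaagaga
Cfi, chr3:129874932-129874988, plus strand: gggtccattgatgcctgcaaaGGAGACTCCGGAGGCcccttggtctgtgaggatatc
Masp1-201, chr16:23452517-23452876, minus strand: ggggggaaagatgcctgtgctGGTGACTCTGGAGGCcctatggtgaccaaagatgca
Masp1-203, chr16:23470015-23470071, minus strand: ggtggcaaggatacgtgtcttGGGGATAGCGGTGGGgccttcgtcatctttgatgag
The long Masp1 transcripts, of 704 and 733 codons, carry different protease ends, while another Masp1 transcript, of 385 codons, holds no such stretch. The log2 differences of the 6 protease genes ran from -0.55 in Masp1 to 2.52 in C1s1.

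Levels were compared between genes per kilobase (kb) of the longest annotated protein-coding transcript. In Scr the order from high to low was Cfi at 5299 per kb, Cfb at 4644, C2 at 1557, C3 at 1382, Masp1 at 977, C4b at 942, C1ra at 402, C1s1 at 102 and Serping1 at 29.6. In this order C2 overlapped C3, and Masp1 overlapped C4b, in the ranges of their libraries. In siCasp8 the order was Cfi at 6696 per kb, Cfb at 5731, C2 at 2952, C4b at 2143, C3 at 1711, Masp1 at 666, C1ra at 633, C1s1 at 581 and Serping1 at 53.5, and Masp1 and C1ra overlapped. The order thus changed only in the middle, where C4b stood above C3 and Masp1 in siCasp8. Among 13203 genes ranked by value per length, C1s1 stood at place 9807 in Scr and 5304 in siCasp8, and Masp1 at 3464 and 4800.

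**Figure D2:**
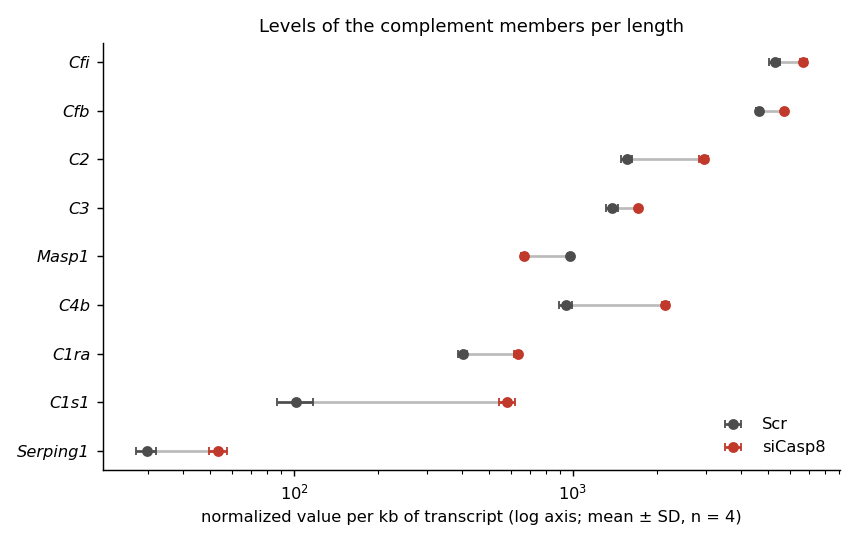
Normalized value per kilobase of transcript (log axis) of the 9 members in Scr and siCasp8, as group means ± SD of 4 libraries. Cfi and Cfb lie highest and Serping1 lowest in both groups, and Masp1 is the gene whose siCasp8 point lies to the left of its Scr point.

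The libraries of a group lay close together for most members. The coefficient of variation in Scr ran from 1.94% for Masp1 to 14.9% for C1s1, and in siCasp8 from 0.599% for C3 to 7.24% for Serping1. With estimated depth as a covariate, the log2 difference was 2.29 for C1s1, 1.07 for C4b and 0.86 for C2, and 8 of the 9 members were still higher in siCasp8.

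Outside the 9 members, 51 complement genes were listed by role, of which 50 had a value, 10 were listed at 0 in all libraries, and 24 could be tested. Of these 24, limma called 13 higher and 3 lower in siCasp8, against 19.4% and 20.8% of all tested genes, and 8 did not pass. Of the 16 called, 3 passed the filter on low values only through the group where they were high, 2 of the higher and 1 of the lower. C1s2 and C1rb, near-identical copies of members, are among those called higher. The median of the 24 log2 differences was 0.50, and 15 had groups that did not overlap. Over all tested genes 18.0% did not overlap with siCasp8 above and 19.5% with siCasp8 below. The lists were drawn up with earlier results of these data known.

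In the list of soluble regulators, 6 of 7 tested genes rose and 1, Cpb2, did not pass (log2 difference 0.13, limma adjusted p = 0.752). Of the 6, 2 passed the filter on low values through siCasp8 alone. Cfhr2, a soluble regulator gene, averaged 3.50 ± 1.21 in Scr and 43.6 ± 2.24 in siCasp8, with groups apart. It passed the filter on low values through siCasp8 alone, so its call is part of the count only and no p is given, and its Scr value rests on an estimated 1.91 to 5.75 reads per Scr library.

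C4bp, whose product binds C4 fragments as a cofactor of factor I, rose from 661 ± 24.1 to 1101 ± 48.9 (log2 difference 0.73, limma adjusted p = 7.56e-07). Cpn1, the catalytic subunit of carboxypeptidase N that trims the anaphylatoxins, rose from 1352 ± 25.04 to 2809 ± 157 (log2 difference 1.05, limma adjusted p = 1.63e-08). Clu and Vtn encode clusterin and vitronectin, which bind the terminal complex. Clu rose by a log2 difference of 0.52 from 234290 ± 17931, a value far above any member, and Vtn by 1.08 from 54.4 ± 5.93 (limma adjusted p = 7.73e-06 and 0.000207).

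In the classical and lectin list, 4 of 5 tested genes were called higher and 1 lower. C1s2, the copy of C1s1, rose from 27.4 ± 3.25 to 115 ± 14.6 (log2 difference 2.02, limma adjusted p = 1.34e-06), and C1rl, a C1r-like protease gene, from 225 ± 23.9 to 451 ± 18.1 (log2 difference 1.00, limma adjusted p = 3.06e-06). C1s2 shares 40.4% of its 31-base words with C1s1, and C1rb shares 70.0% of its words with C1ra. Reads of these members could be counted under the copies, so the calls of C1s2 and C1rb are not independent of the selected members. C1rb (log2 difference 0.72) and Masp2 (0.58) passed with limma adjusted p = 0.0370 and 0.0464. C1rb was no longer called without Scr replicate 1, 2 or 3 or siCasp8 replicate 1, 3 or 4, where its adjusted p was 0.0528 to 0.119. Masp2 was no longer called without Scr replicate 1 or 4 or any single siCasp8 replicate, where its adjusted p was 0.0728 to 0.112. Colec10, a collectin that joins MASP proteases to sugars, averaged 18.2 ± 1.80 in Scr and 6.55 ± 3.95 in siCasp8. It passed the filter through Scr alone, so no p is given. Its call was lost with depth as a covariate, where its log2 difference was -1.63, against -1.50 in the main fit. C1qa, C1qb and C1qc, the 3 chains of C1q and genes of macrophages in liver, were listed at 0 in all 8 libraries, as were Fcnb, Cfd, C8b, Cfhr3, Susd4, C5ar1 and Vsig4.

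Of the other lists, properdin, encoded by Cfp, was the tested gene of the alternative route and did not pass (log2 difference 0.29, limma adjusted p = 0.0560), but was called without Scr replicate 4 (0.0388) or siCasp8 replicate 3 (0.0479). C8g was the tested terminal component and passed at a limma adjusted p of 0.0421 (log2 difference 0.57). It was not called without Scr replicate 2 or 3 or any single siCasp8 replicate, where the adjusted p was 0.0623 to 0.116. Among membrane regulators 2 of 6 rose, 1 fell and 3 did not pass. Cd55, decay-accelerating factor, rose from 93.3 ± 9.77 to 201 ± 33.6 (log2 difference 1.09, limma adjusted p = 5.39e-05), and Cd46, a cofactor of factor I, by 0.48 (limma adjusted p = 8.14e-05). Cd59b, an inhibitor of the terminal complex, fell by 0.70 on the log2 scale (limma adjusted p = 0.000264), while its neighbour copy Cd59a had a difference of 0.10 (limma adjusted p = 0.230, or 0.0211 after rescaling to the upper quartile). Cr1l, the mouse cofactor also known as Crry, had a log2 difference of 0.01 (limma adjusted p = 0.852), and Csmd1 one of 0.32 (0.467). Among receptors Itgb2, the integrin chain shared by 2 complement receptors, was called lower (log2 difference -1.11, limma adjusted p = 0.0134, or -1.16 and 0.144 with depth as a covariate). Its Scr mean rests in part on replicate 3, at 50.2 against 21.1 to 23.3 in the others, and without it the difference was -0.83 (limma adjusted p = 0.0353). C5ar2, Itgam and C1qbp did not pass, and C1qbp was called lower without Scr replicate 1 (0.0350) or siCasp8 replicate 3 (0.0460).

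**Figure D3:**
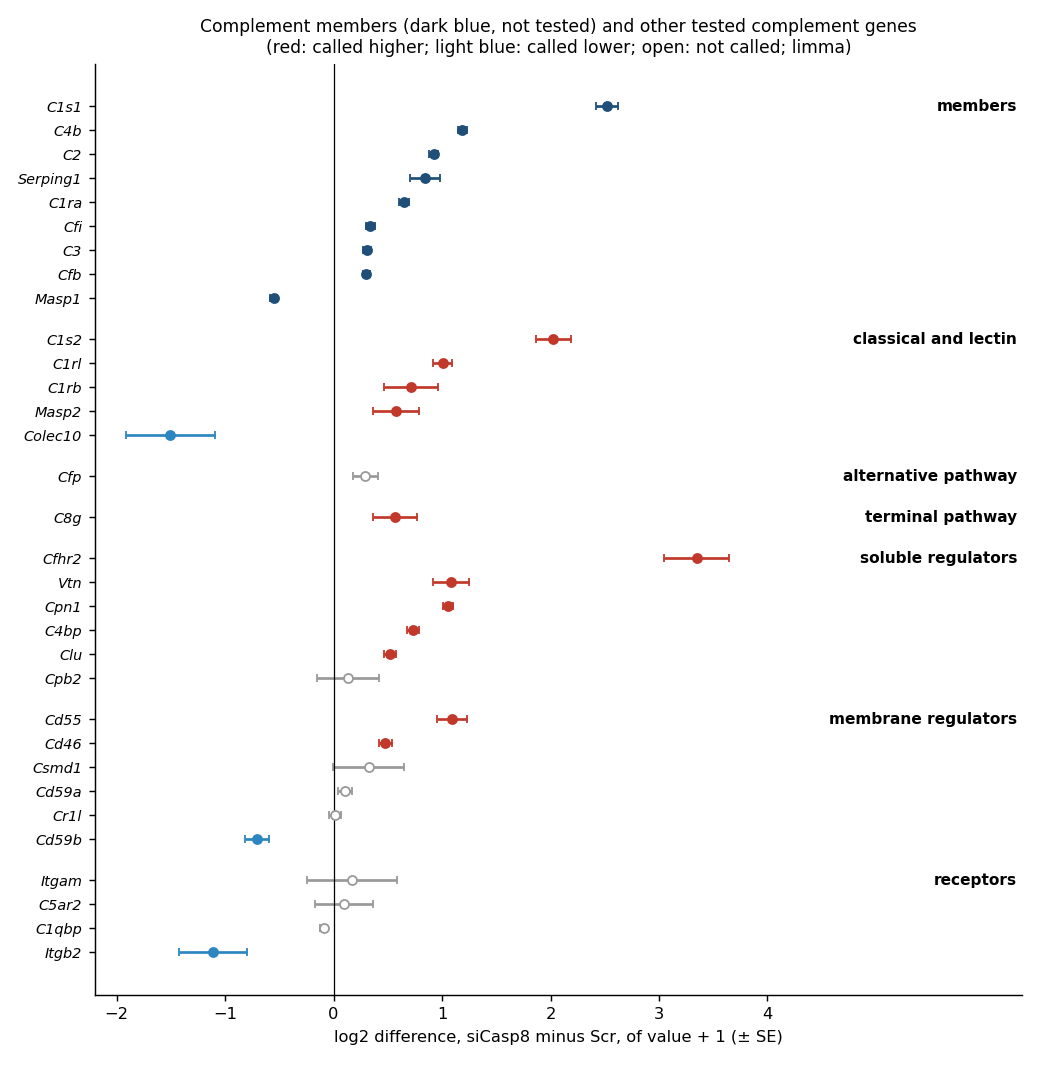
Log2 difference, siCasp8 minus Scr, of value + 1 (horizontal axis, ± SE) for the 9 members and other tested complement genes, grouped by role. Dark blue points are the members, which carry no test, red points were called higher by limma, light blue points lower, and open points were not called. Of the genes drawn, Cfhr2 lies farthest to the right and Colec10 farthest to the left.

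The genes of cytokine receptors and transcription factors known to act on liver complement genes were read from a list of 25, all tested. Of these, 7 rose, 4 fell and 14 did not pass, shares near those of all tested genes (19.4% higher and 20.8% lower), and their median log2 difference was 0.07. Rescaling to a common upper quartile, which moves the median of all genes by 0.10, called 12 higher and 3 lower, and depth as a covariate left 3 higher, Stat3 and Cebpa among them, and 2 lower, Nfkb1 and Il1r1. Stat3, the factor activated by interleukin 6, rose by a log2 difference of 0.22 from 8050.2 ± 223 (limma adjusted p = 0.000323), and Cebpa, a liver transcription factor, by 0.40 from 509 ± 32.2 (limma adjusted p = 0.000271). Irf9, Ifngr2, Ifnar2 and Tnfrsf1a rose by 0.14 to 0.27. Of these, Ifnar2 was not called without Scr replicate 1, 2 or 3 or siCasp8 replicate 2 or 3 (adjusted p up to 0.0877), nor Tnfrsf1a without siCasp8 replicate 2 (0.0549) or 4 (0.0581). Nfkb1, an NF-kB subunit, fell by 0.37 on the log2 scale from 7405 ± 192 (limma adjusted p = 4.68e-06). Il1r1 fell by 0.33 and Ifngr1 by 0.19. Il6st, the signalling chain of the interleukin 6 receptor and the most abundant of the list, had a log2 difference of -0.03 (limma adjusted p = 0.566).

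Promoter sequence was held in RefSeq (GRCm38.p6) for 3 of the 9 members, C1s1, C1ra and C3. C1s1 and C3 are shown because they are the member with the largest difference and the central component. The sequences run up to 250 bases before the start site, and capitals mark a match to TTGCNNAA, a form of the C/EBP motif, read on both strands.
C1s1, chr6:124542393-124542609, minus strand: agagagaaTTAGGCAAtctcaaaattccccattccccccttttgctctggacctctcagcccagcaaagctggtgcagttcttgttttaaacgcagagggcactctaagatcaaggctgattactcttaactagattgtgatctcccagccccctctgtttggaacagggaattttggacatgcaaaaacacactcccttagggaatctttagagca
C3, chr17:57228137-57228386, minus strand: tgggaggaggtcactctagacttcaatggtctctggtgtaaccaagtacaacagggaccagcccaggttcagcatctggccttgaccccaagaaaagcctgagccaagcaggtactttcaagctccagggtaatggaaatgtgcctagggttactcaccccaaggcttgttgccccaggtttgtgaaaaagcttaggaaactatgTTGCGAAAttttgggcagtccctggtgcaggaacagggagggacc
The match begins 242 bases before this start of C1s1 and 45 bases before that of C3, and the same letters occur in 9.56% of 32851 promoter windows of 250 bases. The C1s1 and C3 windows held no match to TTCNNNGAA (STAT, 7.02% of windows), GAAANNGAA (interferon response, 7.13%), TATAAA (12.4%) or the NF-kB motif (7.25%). The window of C1ra, and that of a second start listed for C1s1, held no match to TTGCNNAA. A match or its absence says only which letters are in these windows.

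C1s1 and C1ra lie together on chromosome 6, and C4b, Cfb and C2 on chromosome 17, while C3, Cfi, Serping1 and Masp1 lie apart. The protein-coding neighbours of the members within 100 kb were read, a choice made after values had been seen. Around C1s1 and C1ra all 4 tested neighbours rose: C1rl, C1rb, C1s2 and Pex5, a peroxisome import gene. Over all tested genes 19.4% rose, and C1rb was not called in 10 of the alternatives. Pex5 rose by a log2 difference of 0.14 (limma adjusted p = 0.0121, or 0.13 and 0.161 with depth as a covariate). C1rb and C1s2 share sequence with the members C1ra and C1s1, so their values are not independent of those members. Around C4b, Cfb and C2, 5 of 16 tested neighbours rose, 1 fell and 10 did not pass, where 19.4% of all tested genes rose and 20.8% fell, so the count shows nothing particular to the locus. The 5 include Gm20547, which passed the filter on low values through siCasp8 alone and shares sequence with the members Cfb and C2. They also include Neu1 (limma adjusted p = 0.0469), which was not called in 10 of the alternatives. Tnxb, a matrix gene that lies 8564 bases from C4b, rose from 158 ± 23.3 to 320 ± 30.2 (log2 difference 1.02, limma adjusted p = 2.81e-05), and Lsm2 fell by 0.48 on the log2 scale. Skiv2l, an RNA helicase gene 6163 bases from Cfb, rose by 0.28. Around C3, 2 of 3 tested neighbours rose, Gpr108 and Trip10, of which Trip10 was not called with depth as a covariate. Around Cfi, 2 of 5 rose: Pla2g12a by 0.62 (limma adjusted p = 2.81e-06) and Casp6, which was not called in 5 of the alternatives. Beside Masp1 neither of the 2 tested genes passed. Around Serping1, 1 of 9 tested neighbours rose, 3 fell (Selenoh, Zdhhc5 and Ypel4) and 5 did not pass. After upper quartile rescaling these 3 were not called (limma adjusted p = 0.0549, 0.555 and 0.199). Zdhhc5 was not called without Scr replicate 1 (0.0517) or siCasp8 replicate 3 (0.0502), nor Ypel4 without Scr replicate 3 or 4 or siCasp8 replicate 1, 2 or 3 (0.0546 to 0.114).

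**Figure D4:**
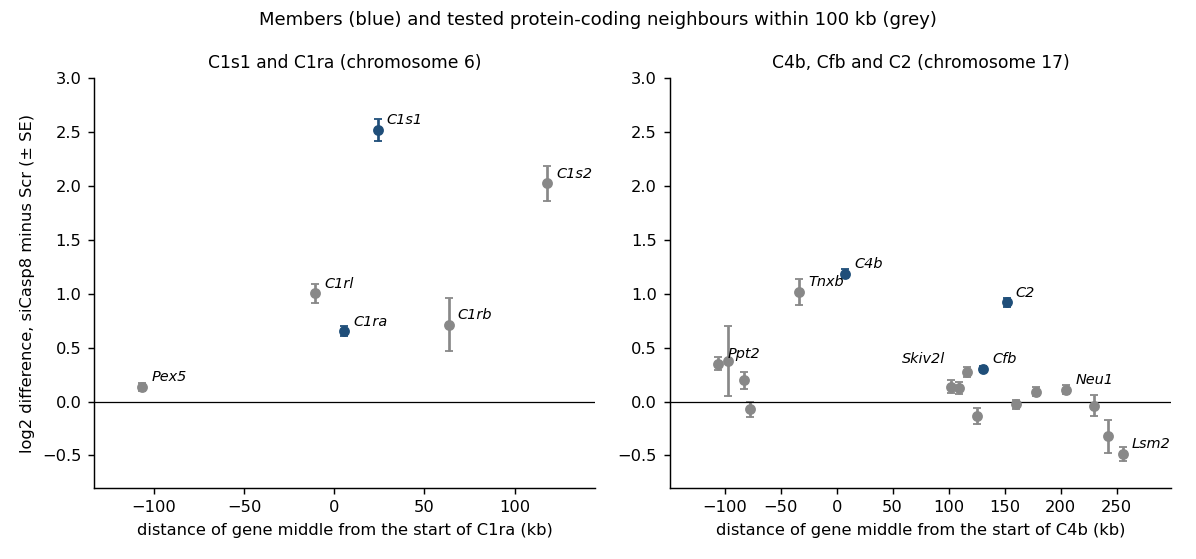
Log2 difference, siCasp8 minus Scr (vertical axis, ± SE), of members (blue) and tested protein-coding neighbours within 100 kb (grey) against the distance of the gene middle from the start of C1ra or C4b in kb. Named grey points were called by limma, and Gm20547 is left out. C1s1 and C1s2 stand highest on chromosome 6, and C4b, Tnxb and C2 highest on chromosome 17.

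The genes whose pattern over the 8 libraries lay closest to that of C1s1, C3 and Serping1 were found by the root mean square difference in log2(value + 1) centred on the Scr mean, among 11298 genes. Nearest to C1s1 were Serpina10 at 0.33, Sptssb at 0.33 and Ugt2b35 at 0.34, and no gene lay within 0.1. Serpina10, a plasma serpin, went from 43.7 ± 9.73 to 237 ± 21.5. Nearest to C3 were Rusf1 (0.02), Gm2a (0.03) and Pgm1 (0.03), and 681 genes lay within 0.1 of C3. Nearest to Serping1 were Slc27a1 (0.07), Xdh (0.07) and Ephx1 (0.08), and 8 genes lay within 0.1.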

How the data were processed

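Poly-A RNA of 4 Scr and 4 siCasp8 AML12 cultures was sequenced after RNeasy extraction and TruSeq library preparation, per the labels' protocols. Tools listed in the submitters' processing notes are kallisto 0.44.0, DESeq2, sleuth and bcl2fastq 2.19, and builds are GRCm38 and GRCh38, with no role or order. The authors deposited 1 normalized signal value for each symbol, at or above 0, which the table's name describes as kallisto estimates scaled with DESeq2. Annotation, gene-level summing and siRNA sequences are not given in the sources used here. A row with no symbol held 0.0481% to 0.0631% of each library and was left out.

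Depth was estimated from the value of 1 read (0.776 to 1.47). Only 65.7% to 75.0% of low values lay within 0.1 read of a whole number, so reads were not recovered and no count model was used. With R 4.3.3 and limma 3.58.1, log2(value + 1) of the 14154 genes with a mean of at least 10 was fitted over all 8 libraries (moderated test, trend, two-sided, Benjamini-Hochberg, called at adjusted p under 0.05). The fit was tested on simulated data. This scale understates differences of low genes. Errors are SD over 4 libraries or SE of the log2 difference.

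Members and lists were chosen with earlier results of these data known. Named genes were Casp8, the members, listed complement genes with a mean of at least 10 or at 0, called or most abundant inducers, cell type markers that are most abundant or at 0, and the 3 genes nearest in pattern to C1s1, C3 and Serping1 (mean at least 50, without predicted genes, clones and pseudogenes). A few genes the rule gives are left unreported; list counts include them. Positions and transcripts are from GENCODE M21 on GRCm38, and promoters from RefSeq on GRCm38.p6. Alternatives were 3 rescalings, 2 pseudocounts, 2 filters, a replicate block, depth as a covariate and leaving out each library.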

Additional observations from a re-analysis of the deposited data

Results flagged for a closer look

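Over 81 tested genes, those named here and others of the complement and inducer lists, 161 groups of 4 libraries were examined, and 9 had 1 library far from the other 3, where chance gives about 1 group in 20. Among complement genes, Masp1 stood at 5371 in Scr replicate 2 against 5154 to 5185 in the others, Cpn1 at 1315 in Scr replicate 3 against 1362 to 1369, and Cr1l at 2817 in Scr replicate 4 against 2898 to 2912. Itgb2 stood at 50.2 in Scr replicate 3 against 21.1 to 23.3.

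Among inducers, Jak2 stood at 8597 in Scr replicate 3 against 7996 to 8097 in the others. Cebpa stood at 557 in Scr replicate 2 against 488 to 498, and at 699.7 in siCasp8 replicate 1 against 662 to 667. Socs3 stood at 1883 in siCasp8 replicate 4 against 1579 to 1611. Pgm1, a gene of similar pattern to C3, stood at 855 in Scr replicate 2 against 800.1 to 809.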

How the results depend on the processing

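The 9 members kept their direction under every alternative, and no called result reversed. The gap between groups was counted after the 3 rescalings and with each library left out, and all 9 members kept it. Leaving out a library cannot close a gap, and the members were selected on this contrast, so these outcomes are description only. Uncalled differences near 0 changed sign in places: C1qbp was 0.01 after upper quartile rescaling, and after quantile normalization Itgam was -0.12, C5ar2 -0.04 and Cpb2 -0.03. Rescaling to a common upper quartile moved the median of all genes by 0.10, called 4471 genes higher and 1665 lower, and put the members' median at 0.75 and Masp1 at -0.45. With depth as a covariate 2794 genes were called, 1303 higher and 1491 lower, 1 other complement gene was called lower, and the members' median was 0.59. Leaving out 1 library gave 4800 to 5719 calls, 2264 to 2751 higher and 2536 to 2968 lower, 10 to 13 other complement genes higher and 3 to 4 lower, and a members' median of 0.63 to 0.67. The log2 differences of the members ranged over all alternatives from 2.29 to 2.62 for C1s1, 1.07 to 1.29 for C4b, 0.29 to 0.41 for C3 and 0.26 to 0.40 for Cfb. The cause of these shifts was not tested. The deviations of same-numbered libraries correlated at 0.0785, 0.0442, 0.169 and 0.0554, and each library correlated best with its own number. The labels give only a replicate number, so whether same-numbered cultures shared a preparation cannot be told. The main fit did not pair them. A fit with the replicate number as a block called 6020 genes, 2868 higher and 3152 lower, and 12 other complement genes higher and 4 lower: C1rb (limma adjusted p = 0.0528) and Masp2 (0.0647) were no longer called, and Cfp (0.0408) and C1qbp (0.0357) were. Low counts limit Serping1 among the members, and Cfhr2, Colec10, Itgb2, C1s2, C1rb, Masp2, C8g and Cr2 among other genes. With no filter on low values C1rb, Masp2 and C8g were not called (limma adjusted p = 0.0723, 0.109 and 0.0982).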

Other observations

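Cr2, the gene of complement receptor 2, lay under the filter on low values and was not tested. It stood at 1.96, 2.00, 0.81 and 0 in Scr and at 9.31, 9.53, 16.6 and 25.7 in siCasp8, with no overlap between the groups. Terminal component genes other than C8g were near the value of a few reads in both groups: C6 averaged 5.86 ± 2.13 in Scr and 11.3 ± 3.48 in siCasp8, and Hc, the gene of C5, 4.55 ± 4.23 and 3.46 ± 2.57. These 3 genes were chosen after their values were seen.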
